A study of Mus musculus with 36 samples.

Results

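Reduced representation bisulfite sequencing (RRBS), which reads cytosine methylation near the CCGG sites cut by MspI, was examined at partly methylated promoters of protein-coding genes in B3, a mouse pre-B cell line. Promoters were chosen by their level in the Control samples: a CpG cluster (20 or more listed positions at most 100 bp apart) on an autosome that overlapped 1 kb either side of a protein-coding transcription start and had a mean level from 10% to 80% over the 18 Control samples. This selected 872 of 12877 autosomal promoter clusters (6.77%), out of 16734 clusters with a value in every sample. Of the other promoter clusters, 7551 had a Control mean under 10% and are called unmethylated here, and 4454 had a Control mean over 80% and are called methylated. The 872 clusters lay nearest to a start of 805 genes, and each is called by that gene.

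The Ikaros series was B3 cells transduced with a retroviral (MSCV) vector for HA-Ikaros-ERt2, followed by IRES-GFP, and the Control series was B3 cells with a vector carrying ERt2 without Ikaros. ERt2 holds a fused protein outside the nucleus until 4-hydroxytamoxifen (4-OHT) is added. Both series were collected at 0, 2, 6, 12, 18 and 24 h with 3 replicates each, 36 samples in all. The labels give 0.5 uM 4-OHT for every sample, while the description of the experiment has none at 0 h. The series are separately transduced cells of 1 line, so a difference between them at all times and a difference between the cell populations cannot be told apart. The processed tables hold no read counts, so the depth behind a level is unknown and its precision is given only by the spread between replicates.

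DNA methylation at CG dinucleotides is copied to the new strand after DNA replication, and CpG-rich promoters are usually found at one of the extremes, unmethylated in most genes and methylated at silenced ones. A level between the extremes in a pool of cells can come from alleles or cells that are fully methylated mixed with others that are not, from single molecules with a mosaic of methylated and unmethylated cytosines, or from a border between an unmethylated and a methylated stretch inside the window. The deposited levels are averages over reads, smoothed along each cluster, and do not tell the first of these apart from the second. Imprinted genes are the best known promoters of the first kind, with one parental allele methylated.

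As a check of the label, all 3 of 12 B-lineage marker genes that had a promoter cluster were unmethylated, with Control means of 0.938% at Pax5, 0.243% at Ebf1 and 0.293% at Vpreb1. Of 10 marker genes of other blood lineages 4 had a promoter cluster, with Cebpa (97.8%) and Bcl11b (98.3%) methylated and the lowest cluster of Klf1 (1.58%) and Gata3 (9.01%) unmethylated.

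Stretches of 7 members are shown to let the levels be read against the DNA. They lie outside annotated untranslated regions, are written on the strand of the gene in GRCm38, and have in capitals each CG with a listed position that had a value in every sample. The first 3 cross the border inside a member whose level steps from low to high or back. In Foxd2, a forkhead transcription factor gene, the stretch chr4:114908362-114908583 (minus strand, coding exon) started 290 bp after the transcription start. Its first 3 positions had a mean Control level of 10.9% and its last 3 of 95.8%. In Sfmbt1, a Polycomb-type chromatin protein gene, chr14:30715316-30715537 (plus strand, intron of another transcript) lay 299 to 78 bp before the start and went from 66.0% to 15.8%. In Bend4, chr5:67426970-67427191 (minus strand, coding exon) lay 139 to 360 bp after the start and went from 28.2% to 89.9%.
Foxd2: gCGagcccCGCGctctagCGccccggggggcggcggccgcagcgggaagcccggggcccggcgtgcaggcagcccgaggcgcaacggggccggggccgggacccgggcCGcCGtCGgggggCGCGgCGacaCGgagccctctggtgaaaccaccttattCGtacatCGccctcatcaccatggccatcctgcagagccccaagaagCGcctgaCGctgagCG
Sfmbt1: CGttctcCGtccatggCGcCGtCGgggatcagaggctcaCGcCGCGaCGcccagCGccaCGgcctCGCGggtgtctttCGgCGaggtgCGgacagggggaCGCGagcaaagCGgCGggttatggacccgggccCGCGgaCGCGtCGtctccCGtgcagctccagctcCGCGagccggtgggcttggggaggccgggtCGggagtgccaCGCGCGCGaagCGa
Bend4: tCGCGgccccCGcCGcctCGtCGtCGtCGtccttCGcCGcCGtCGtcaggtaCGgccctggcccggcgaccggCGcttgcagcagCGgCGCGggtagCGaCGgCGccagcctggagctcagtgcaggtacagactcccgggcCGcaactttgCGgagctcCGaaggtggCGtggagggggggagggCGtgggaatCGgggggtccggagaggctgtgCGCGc

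The next pair come from members with a level near the middle at every position. In Insm1, a zinc finger gene of neuroendocrine cells, chr2:146222438-146222654 (plus strand, coding exon) had 47.9% over its first 3 positions and 46.5% over its last 3. In Bmi1, the Polycomb ring finger gene, chr2:18676555-18676765 (plus strand, outside annotated genes) lay 463 to 253 bp before the start and had 41.0% and 43.8%.
Insm1: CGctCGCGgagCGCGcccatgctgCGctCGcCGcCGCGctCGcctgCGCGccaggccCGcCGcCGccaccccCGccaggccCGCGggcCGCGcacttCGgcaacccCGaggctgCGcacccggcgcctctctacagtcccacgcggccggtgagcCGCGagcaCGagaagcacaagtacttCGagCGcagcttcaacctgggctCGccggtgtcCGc
Bmi1: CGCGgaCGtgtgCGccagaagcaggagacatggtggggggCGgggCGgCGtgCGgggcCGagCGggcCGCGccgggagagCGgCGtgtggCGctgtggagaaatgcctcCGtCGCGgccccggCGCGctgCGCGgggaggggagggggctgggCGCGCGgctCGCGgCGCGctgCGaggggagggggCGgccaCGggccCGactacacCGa

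The last pair come from members that differed between the series. In Ephb6, an Eph receptor without kinase activity, chr6:41605256-41605472 (plus strand, outside annotated genes) lay 226 to 10 bp before the start, with a mean of 34.5% in Control and 69.1% in Ikaros. In Atxn1, the gene of ataxin-1, chr13:45963502-45963723 (minus strand, intron) had 15.7% in Control and 29.9% in Ikaros. 
Ephb6: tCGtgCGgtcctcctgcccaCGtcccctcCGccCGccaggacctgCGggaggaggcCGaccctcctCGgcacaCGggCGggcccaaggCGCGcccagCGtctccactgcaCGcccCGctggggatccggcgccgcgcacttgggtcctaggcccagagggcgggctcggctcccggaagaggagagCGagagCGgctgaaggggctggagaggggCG
Atxn1: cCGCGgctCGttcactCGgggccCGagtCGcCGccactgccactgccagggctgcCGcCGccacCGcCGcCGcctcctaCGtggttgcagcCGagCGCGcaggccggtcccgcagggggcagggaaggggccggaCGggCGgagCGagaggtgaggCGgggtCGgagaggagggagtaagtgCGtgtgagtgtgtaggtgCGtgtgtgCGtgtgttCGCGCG

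Levels along the members fell into 3 shapes, set on the Control mean of each position. In 371 members (42.5%) all positions lay from 20% to 80%, and these are called evenly intermediate. In 100 members (11.5%) some position was under 20% and another over 80%, which is called a sharp step. The other 401 members (46.0%) had neither pattern. These are descriptions, since the Control levels chose the members. With the same bounds on the Ikaros means, 352 of the 371 evenly intermediate members, 95 of the 100 sharp steps and 362 of the 401 others kept their shape.

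The members were not spread evenly over the range from 10% to 80%. The interval from 40% to 50% held 247 of them, against 77 from 20% to 30% and 87 from 60% to 70%, and 203 of the 247 were evenly intermediate. From 10% to 20% there were 132 members, where the definition of the shape allows no evenly intermediate one, and from 70% to 80% there were 108. The bounds of that shape also thin it towards both ends. The median Control level of the evenly intermediate members was 46.0%, of the sharp steps 33.4% and of the rest 41.9%. Away from promoters 308 of 3514 autosomal clusters had a Control mean in the same range, of which 54 (17.5%) lay from 40% to 50%. On chromosome X, which the rule left out, 9 of 257 promoter clusters (3.50%) had a Control mean from 10% to 80%, against 4.92% to 8.34% of the promoter clusters of each autosome.

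**Figure D1:**
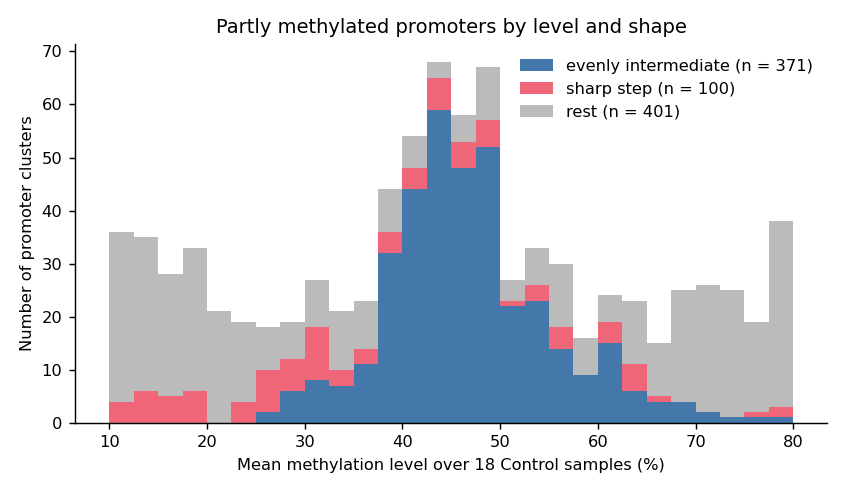
Number of partly methylated promoter clusters (y axis) by mean level over the 18 Control samples in % (x axis, bins of equal width), stacked by shape. The evenly intermediate members (n = 371) form a peak from 40% to 50%, where 203 of them lie. Of the rest (n = 401) 111 lie from 10% to 20% and 100 from 70% to 80%. Counted in intervals of 10 points, which are wider than the plotted bins, the sharp steps (n = 100) number 18 to 21 in each interval up to 50% and fewer above.

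At the bounds of the rule there was no gap. Just inside the lower bound were Plxnb2 (10.1%) and Qdpr (10.2%), and just outside it Gpatch3 (9.99%) and Abhd8 (under 10% by less than the last digit shown here). Just inside the upper bound were Prkcq and Olfm2 (both 79.9%), and just outside it Ccdc151 (80.2%) and Fosl1 (80.3%).

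Of the 4 evenly intermediate members with the most positions, none had a position outside 37% to 56%. Insm1 had Control means from 41.1% to 48.0% over 170 positions, Bmi1 from 40.8% to 56.0% over 169, Magi2 from 37.7% to 49.6% over 168 and Clstn1 from 43.1% to 52.5% over 166. Magi2 encodes a synaptic scaffold and Clstn1 a calsyntenin. By contrast Foxd2 ran from 0.150% to 98.3% and Phlpp1, a phosphatase gene, from 0.897% to 98.7% within a single cluster. Bend4 ran from 0.189% to 98.4%, and Sfmbt1 from 0.173% to 80.2%.

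**Figure D2:**
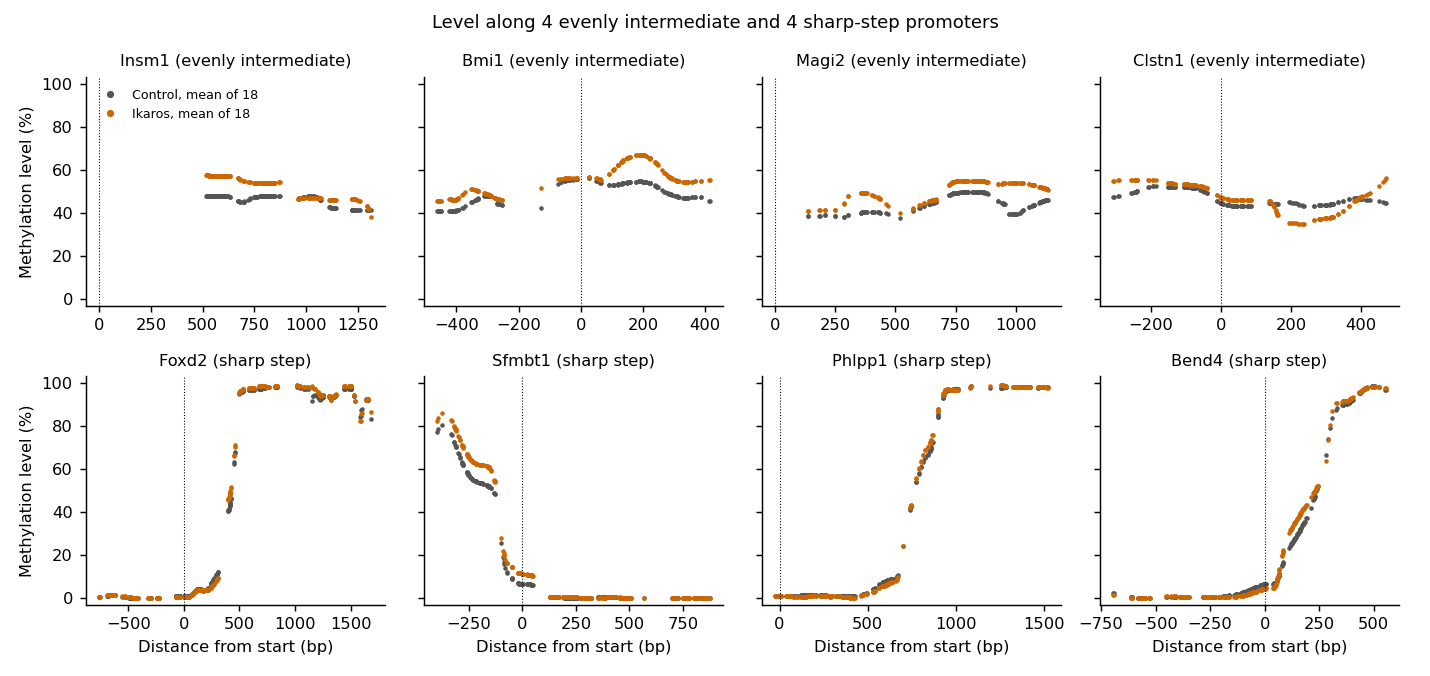
Methylation level in % (y axis) of each listed position by distance from the transcription start in bp (x axis, dotted line at the start) for the 4 evenly intermediate and the 4 sharp-step members with the most positions, as means over 18 Control and 18 Ikaros samples. The evenly intermediate members stay between 37.7% and 56.0% in Control, while the sharp steps pass from under 20% to over 80% within 187 to 286 bp.

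The border of a sharp step lay mostly downstream of the start. Taking the closest pair of positions under 20% and over 80%, the centre of the step was downstream of the start in 68 of 100 members, at a median of 155 bp after it (quartiles 39.2 bp before and 435 bp after). From one end of the cluster to the other, 54 members went from under 20% to over 80% in the direction of transcription, 20 went the other way, and 26 did neither. Between the closest pair alone, the level rose in the direction of transcription in 72 members, 60 of them with the step downstream, as in Foxd2 (309 to 496 bp after the start), Phlpp1 (673 to 899 bp) and Bend4 (86 to 308 bp). Between that pair it fell towards the start from upstream in 20 members, as in Sfmbt1 (376 to 90 bp before the start). The median distance between the pair was 222 bp (quartiles 140 and 303 bp), and it was at most 100 bp in 11 members. The levels were smoothed along the cluster by the authors, which can widen a border.

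By distance from the start, sharp-step members had their lowest median Control level within 200 bp upstream (4.90%, 82 members) and 77.8% from 500 bp to 1 kb downstream (47 members). Evenly intermediate members had medians from 45.4% to 47.3% in the 6 intervals from 1 kb upstream to 1 kb downstream. The intervals did not hold the same members (25 to 271 of them), and the bounds that define each class limit its medians. Unmethylated promoters stayed at medians of 0.277% to 0.721% and methylated promoters at 96.8% to 97.1% in those intervals.

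The sequence of the members was close to that of other promoters. The median GC content was 67.8%, against 68.6% at unmethylated and 68.3% at methylated promoters, and the median ratio of observed to expected CG (1 where CG is as frequent as C and G alone would give) was 0.823, against 0.894 and 0.835. A ratio over 0.6, a usual bound for a CpG island, was found in 92.8% of members, 98.2% of unmethylated and 92.3% of methylated promoters. Sharp-step members were longer, with a median of 911 bp and 10 CCGG sites, than evenly intermediate members, with 343 bp and 4 sites. The part of cluster length in the shape was not tested. The share of bases marked as repeats had a median of 0% in evenly intermediate and 5.17% in sharp-step members.

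In position, 557 members (63.9%) spanned a transcription start, 216 lay downstream and 99 upstream of the nearest one. Of unmethylated promoters 75.1% spanned a start, and of methylated promoters 54.6%. A coding exon was overlapped by 418 members (47.9%) and an annotated untranslated region by 658 (75.5%), while 51 (5.85%) overlapped no protein-coding gene. For 648 members the nearest start belonged to a protein-coding transcript, and for the rest to another transcript of the same gene, such as one with a retained intron (97). A second promoter cluster of another class was common: 125 of the 805 genes also had an unmethylated cluster and 152 a methylated one, and 64 genes had more than 1 partly methylated cluster.

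Replicates differed more at these promoters than at unmethylated and methylated ones, and by a like amount at partly methylated clusters away from promoters. The median SD between replicates of a condition was 6.23 percentage points over the members, 0.427 over unmethylated and 1.51 over methylated promoters, which have little room to vary at the ends of the scale. It was 6.04 points over the 308 autosomal clusters away from promoters in the same range, and with Control means from 40% to 50% it was 8.44 over 247 members and 8.65 over 54 clusters away from promoters. Among the members it was 8.92 points for evenly intermediate, 4.67 for the rest and 1.99 for sharp steps. A step's mean averages positions near both ends. At single positions with a Control mean from 40% to 50% the medians were closer, 12.7 points in 299 evenly intermediate members, 8.39 in 53 sharp steps and 10.8 in 213 of the rest.

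The spread of the evenly intermediate members fell with the number of positions. Split into 4 groups from the fewest positions (2 to 24) to the most (62 to 170), they had a median SD of 10.7, 9.54, 8.42 and 7.74 points. From the lowest to the highest of the 18 Control samples the median range was 30.6 points for evenly intermediate members, and 45 of 371 had a range over 50 points, against 0 of 100 sharp steps. Bmi1 had 25.6%, 51.1% and 61.4% in the lowest, median and highest Control sample, and Foxd2 46.0%, 46.6% and 47.7%. Both had a mean near the middle, and the range over samples was far narrower at Foxd2. Deviations from the condition means had a median correlation over the 36 samples of 0.0477 in 65 pairs of members with centres under 2 kb apart, and of 0.0263 in pairs on different chromosomes, with all pairs sharing the same libraries.

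**Figure D3:**
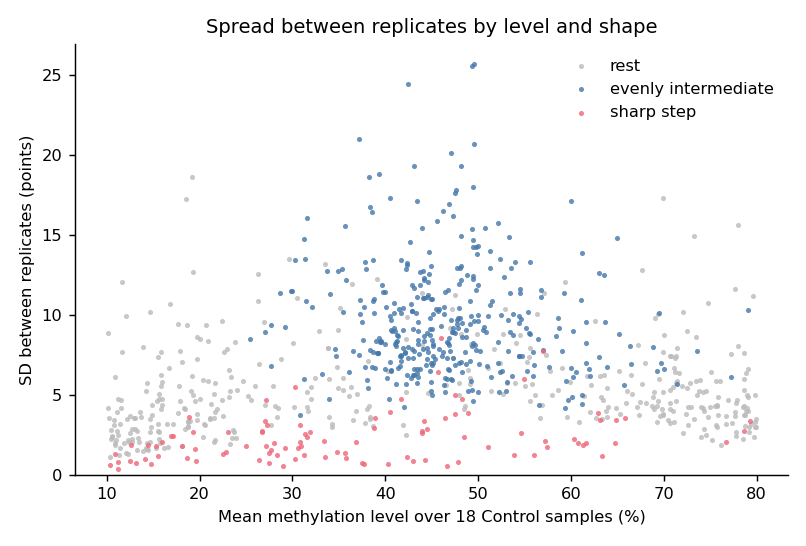
SD between replicates of a condition in percentage points (y axis) by mean level over the 18 Control samples in % (x axis), with a point for each of the 872 members coloured by shape. With a Control mean from 40% to 50% the median was 9.02 points for 203 evenly intermediate members and 3.09 for 20 sharp steps.

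Members of the imprinted gene list are set beside the evenly intermediate members, and whether their methylation differed between alleles was not tested. The list had 55 promoter clusters, 41 of them methylated, and 6 partly methylated, of which 5 were evenly intermediate. At Gnas, which encodes a G protein subunit and several imprinted transcripts, the larger cluster chr2:174328405-174328781 had 20.1%, 42.5% and 56.2% in the lowest, median and highest Control sample and 21.1%, 49.4% and 62.9% in Ikaros. Herc3 is a ubiquitin ligase gene with the imprinted gene Nap1l5 in an intron, and its member spanned the start of Herc3 itself. This member had 23.2%, 39.3% and 60.4% in Control and 23.1%, 37.3% and 69.0% in Ikaros. Impact, a translation regulator, had 31.2%, 40.2% and 56.9% in Control and 20.98%, 39.7% and 57.4% in Ikaros. The series overlapped at each of these, and the SD between replicates of 8.69, 11.03 and 8.31 points was of the size found over all evenly intermediate members. Gab1 was the exception in shape, from 36.5% to 98.1% along the cluster, with a Control mean of 71.0%. None of the 6 passed the test of the series.

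Before the comparison of the series, the library labelled Control 24 h replicate 2 has to be named. Over the 196 members that differed between the series, it lay 60.6% of the way from the mean of the Control samples of 2 to 18 h to that of the Ikaros samples of 2 to 18 h. The other 17 Control samples lay from -14.4% to 15.5% and the 18 Ikaros samples from 86.7% to 112%. These members and the ends of the scale came from the same samples, so the separation of the other samples was largely set by that choice. The main counts, and the levels of the named members it touches most, are given with and without it.

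Across all times, 196 of the 872 members (22.5%) differed between Ikaros and Control in limma at an adjusted p under 0.05 (Benjamini-Hochberg over all clusters), against 4.84% of all clusters. They were mostly higher in Ikaros, 175 members against 21 lower, where 3.71% and 1.13% of all clusters were higher and lower. The Control mean chose the members, so this contrast is not fully independent of the rule. With the range applied to the Ikaros samples, 164 of 851 passed, 150 of them higher. Unmethylated promoters had 218 of 7551 past the threshold and methylated promoters 189 of 4454. The test was made on M-values, log2 of the methylated over the unmethylated share.

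As a median over all members the level was 2.25 points higher in Ikaros, with 647 of 872 (74.2%) higher, against 55.3% of all clusters. The median difference was 0.00413 points at unmethylated and 0.133 at methylated promoters, of which 51.1% and 59.1% were higher. A difference over 10 points was found at 85 members, 68 of which passed, and at 119 of all clusters. The median member had 39.7%, 44.4% and 48.1% in the lowest, median and highest Control sample and 45.2%, 47.2% and 50.03% in Ikaros, so the series overlapped. The lowest Control sample here was Control 24 h replicate 2, the lowest of all 36 samples, so over all members it lay away from the Ikaros samples, and without it the lowest was 40.6%. The samples of the series did not overlap at 4 members, all higher in Ikaros, where 0.0478% of all clusters did not overlap. Without Control 24 h replicate 2 there were 16 such members, all higher, against 0.221% of all clusters, and 197 members passed the test, 174 of them higher. The median difference over the members was then 2.14 points, with 630 higher and 88 differing by over 10 points. Within batches the median difference over the members was 2.37 points in batch 1, 1.02 in batch 2 (1 sample a series), 2.33 in batch 3 and 3.16 in batch 4. In these batches 590, 493, 621 and 637 of the 872 members were higher in Ikaros. The share of all clusters higher was not counted by batch. Without Control 24 h replicate 2 the shares of all clusters that were higher or passed the test were not counted either.

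Shapes and levels were set on the Control means, which are also one side of the comparison, so the shares are a description. The share that passed was 131 of 401 (32.7%) for members of neither shape, 30 of 100 for sharp steps and 35 of 371 (9.43%) for evenly intermediate members, which also had the largest spread between replicates. All 35 evenly intermediate members that passed were higher in Ikaros. Without Control 24 h replicate 2 the counts were 135, 30 and 32. By Control level the share was lowest from 40% to 50%, with 26 of 247 (10.5%), and highest from 70% to 80%, with 47 of 108 (43.5%). With range, shape and level all set on the Ikaros samples, 93 of 357 (26.1%) of neither shape, 31 of 111 sharp steps (27.9%) and 40 of 383 evenly intermediate clusters (10.4%) passed, and the share was 7.08% from 40% to 50% and 31.7% from 70% to 80%. The mean over the 100 sharp steps was 35.9% to 37.4% in the Control samples and 38.3% to 39.7% in the Ikaros samples, without overlap, and that over the evenly intermediate members 42.1% (again Control 24 h replicate 2, and 42.7% without it) to 50.06% and 47.8% to 52.8%, with overlap. Within sharp-step members, positions with a Control mean from 20% to 80% were 4.55 points higher in Ikaros in the median member, and those under 20% and over 80% differed by -0.00561 and 0.755 points. With positions classed on the Ikaros mean these values were 4.35, -0.212 and 0.922 points. The 30 sharp steps that passed, 26 of them called higher, were picked by this same comparison, so the direction of their differences was largely set. Their medians were 7.74 points from 20% to 80%, 3.30 under 20% (25 of 30 higher) and 1.36 over 80%. Over all 100 sharp steps 48 were higher at positions under 20%. Members of neither shape had 4.01 points at positions from 20% to 80%, so a larger difference there was not particular to the steps.

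**Figure D4:**
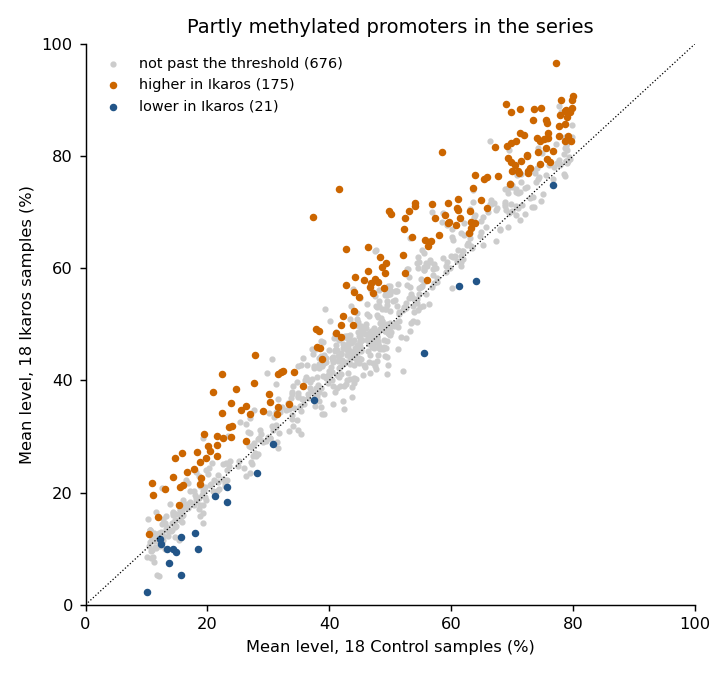
Mean level in % over the 18 Ikaros samples (y axis) against that over the 18 Control samples (x axis), with a point for each of the 872 members, the dotted line marking equality. The 175 members called higher in Ikaros lie above the line and the 21 called lower lie below it.

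The 12 members with the smallest p all had a higher level in Ikaros, with adjusted p from 3.5e-10 to 1.46e-08. Ephb6 had the largest difference of them, and its 533 bp cluster chr6:41605257-41605789 covers the start and an untranslated exon. It had 25.2%, 41.9% and 71.0% in the lowest, median and highest Control sample and 66.4%, 74.4% and 81.2% in Ikaros. The highest Control sample was 24 h replicate 2, and without it the highest was 50.5%, below every Ikaros sample. The means were 41.7% ± 9.44 and 74.1% ± 4.39 (SD, n = 18), a difference of 32.4 points or 2.23 ± 0.204 (SE) in M. Without Control 24 h replicate 2 the Control mean was 39.9% ± 6.13 (SD, n = 17).

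Sema5a, a semaphorin (chr15:32245146-32246463, a sharp step), had 39.9%, 43.2% and 58.0% in the lowest, median and highest Control sample and 53.5%, 58.3% and 63.4% in Ikaros, and without Control 24 h replicate 2 the highest Control sample was 48.3%. Itgb4, the integrin subunit of hemidesmosomes (chr11:115974791-115975196), had 49.8%, 59.3% and 66.8% in Control and 64.0%, 71.1% and 78.4% in Ikaros, with overlap at the edges. 

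Plekhg3, which encodes a protein with a pleckstrin homology domain (chr12:76533456-76533975), had 61.1%, 68.2% and 83.0% in Control and 84.5%, 89.9% and 93.0% in Ikaros, with no overlap. Dock9, an exchange factor for Cdc42 (chr14:121797818-121798613), had 75.6%, 78.9% and 86.4% in Control and 83.3%, 89.4% and 92.3% in Ikaros. The Dock9 samples overlapped and the Plekhg3 samples did not. Gnb5, a G protein beta subunit (chr9:75314093-75314679), had 57.3%, 63.5% and 71.2% in Control and 68.1%, 77.1% and 81.9% in Ikaros. Arpp21, a phosphoprotein regulated by cyclic AMP (chr9:112235095-112235728), had 60.7%, 71.0% and 88.2% in Control and 80.6%, 88.6% and 93.4% in Ikaros. At Arpp21 the highest Control sample was again 24 h replicate 2, and without it the highest was 77.0%.

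Klf4, one of the reprogramming factors (chr4:55532219-55532296, only 78 bp), had 67.1%, 75.8% and 97.1% in Control and 92.3%, 97.0% and 100% in Ikaros. Atp1b1, a subunit of the sodium-potassium pump (chr1:164457801-164458959), had 61.9%, 68.4% and 79.6% in Control and 74.9%, 81.6% and 88.7% in Ikaros. Both had Control 24 h replicate 2 as their highest Control sample, and without it only Klf4 overlapped, with a highest Control sample of 92.9%. Atxn1 (chr13:45963503-45964502, intron) had 16.5%, 21.3% and 40.9% in Control and 32.4%, 42.2% and 47.7% in Ikaros, and without that library the highest Control sample was 25.9%. A smaller cluster upstream of Atxn1, seen after the values were known, also passed (61.2% and 72.4%). Bad, which promotes apoptosis (chr19:6951293-6952433), had 13.3%, 15.6% and 21.01% in Control and 17.1%, 20.7% and 26.8% in Ikaros. Lzts1, a leucine zipper growth suppressor (chr8:69183784-69184520), had 40.2%, 43.7% and 47.7% in Control and 43.9%, 53.2% and 59.9% in Ikaros, and at both Bad and Lzts1 the series overlapped.

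**Figure D5:**
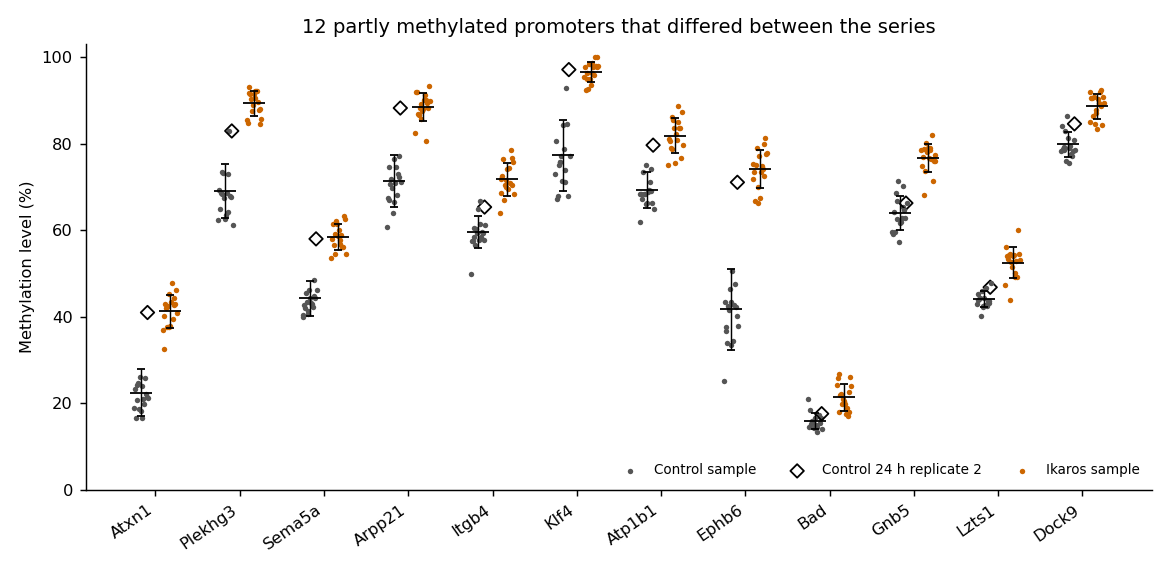
Methylation level in % (y axis) of each sample for the 12 members with the smallest p (x axis), grey for 18 Control and orange for 18 Ikaros samples, with the mean and SD of each series in black and Control 24 h replicate 2 as an open diamond. The Ikaros means are higher throughout. The diamond lies among the Ikaros samples, above the other Control samples, at Ephb6, Atxn1, Sema5a, Arpp21, Klf4 and Atp1b1. At Bad, Lzts1, Dock9 and Itgb4 it lies within the ranges of both series. At Gnb5 and Plekhg3 it lies within the range of the other Control samples and below every Ikaros sample, at Plekhg3 with 82.9% near the lowest of these (84.5%).

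All 12 stayed past the threshold in every alternative fit that was run. The count of 196 fell to 116 without replicate 3 of every condition and to 106 (96 higher) when 2 quality measures of each sample were added to the fit, its share of empty values and its share of levels that are 0 or 1. The latter share was higher in Ikaros (26.9%, 34.2% and 59.1% in the lowest, median and highest sample) than in Control (21%, 26.7% and 36.2%). In these refits the share of all clusters that passed was not counted.

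Mllt3, singled out after its values were seen, had the second largest difference among members that passed: 37.3% in Control and 69.2% in Ikaros (adjusted p = 7.57e-08 in limma). It encodes a subunit of the super elongation complex and was evenly intermediate. The lowest, median and highest sample had 27.1%, 33.8% and 74.97% in Control and 61.8%, 69.7% and 77.9% in Ikaros, so the series overlapped. Control 24 h replicate 2 had 72.3%, and another library was the highest Control sample, so the overlap was the same without it, with a Control mean of 35.2% ± 10.6 (SD, n = 17). The 21 members lower in Ikaros included Plppr3, whose cluster also lies within 1 kb of the neutrophil protease gene Prtn3. It had 9.17%, 14.4% and 17.3% in Control and 7.21%, 9.92% and 12.0% in Ikaros (adjusted p = 4.45e-08 in limma). The median Control level of the 21 was 18.4%, against 53.0% for the 175 that were higher.

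At 0 h, 19 members passed the test in limma (2.18%, against 0.215% of all clusters), 18 of them higher in Ikaros. Pld2, a phospholipase D, had 37.5%, 34.8% and 37.2% in the 3 Control replicates and 64.9%, 55.4% and 52.8% in the Ikaros replicates (adjusted p = 0.00114 in limma), and the replicates did not overlap. At 24 h Pld2 had 36.7%, 46.5% and 42.1% in Control and 35.3%, 36.8% and 44.6% in Ikaros, so there the groups overlapped. Etfb, a subunit of the electron transfer flavoprotein, was the 1 member lower in Ikaros at 0 h. Ephb6 had 25.2%, 43.4% and 36.8% in Control and 75.3%, 71.9% and 73.5% in Ikaros at 0 h. The count was 0 without replicate 1, 1 without replicate 3 and 1 with the covariates.

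At 24 h, 18 members passed in limma (2.06%, against 0.371% of all clusters), 17 of them higher. Without Control 24 h replicate 2, 32 members passed, and the share of all clusters that passed in that fit was not counted. Ttc38, a gene with tetratricopeptide repeats, had 50.02%, 29.7% and 43.2% in the Control replicates and 64.7%, 71.7% and 71.1% in Ikaros (adjusted p = 0.000524 in limma). Rtn4rl2, a receptor of the Nogo family, had 59.8%, 50.7% and 51.9% in Control and 80.99%, 74.5% and 80.1% in Ikaros (adjusted p = 0.000524 in limma). Neither overlapped. The lowest Control value of each was the second replicate, the library named above, and without it the Control means at 24 h were 46.6% at Ttc38 and 55.8% at Rtn4rl2 (adjusted p = 0.00185 and 0.00216 in limma). Itgb4 was the other of the 3 smallest. The count was 7, 9 and 11 without replicate 1, 2 and 3 and 3 with the covariates.

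No change over time within a series passed the test at any member. The cells of 0 h were collected apart from those of the later times, and replicate 2 of 0 h is of another batch than replicate 2 of the later times. In Ikaros the limma F test with Benjamini-Hochberg adjustment passed 0 members, and before adjustment 65 were under 0.05 (7.45%), where 0% and 5.22% of all clusters did. Ttc38 had the smallest p, with means of 54.4% ± 0.604, 51.1% ± 5.43, 49.3% ± 3.98, 55.9% ± 2.19, 49.5% ± 3.52 and 69.2% ± 3.91 (SD, n = 3) from 0 to 24 h (adjusted p = 0.156 in limma). Ttc14 had 18.4% at 0 h, 27.2% at 6 h and 8.37% at 24 h (adjusted p = 0.156 in limma). Rtn4rl2 had 58.2% at 0 h, 47.0% at 18 h and 78.5% at 24 h (adjusted p = 0.252 in limma).

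In Control 0 members passed in limma and before adjustment 28 were under 0.05 (3.21%), against 0.012% and 4.83% of all clusters. The smallest p were those of Prmt2 (adjusted p = 0.690 in limma), Rcn3 (0.734) and Spata13 (0.755). With batch as a block 1 member passed, Mapk4, named after its values were seen. For a course over time that differs between the series, 0 members passed in limma and before adjustment 41 were under 0.05 (4.70%), against 0% and 5.12% of all clusters. Rtn4rl2 (adjusted p = 0.30 in limma), Ttc38 and Rcn3 (both 0.335) were first.

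The counts of members in the gene lists are to be read against 6.77% of all autosomal promoter clusters being partly methylated, and the counts that passed between the series against 22.5% of all members (175 of 196 higher in Ikaros) and 4.84% of all clusters. Of 23 promoter clusters of B-lineage genes, 22 were unmethylated, and the kinase gene Syk was the member, with 15.0%, 24.2% and 30.8% in Control and 14.1%, 24.5% and 30.9% in Ikaros. Of 32 clusters of Ikaros family and NuRD genes the member was Ikzf3, the gene of Aiolos. Ikzf3 had 19.4%, 25.8% and 30.1% in Control and 23.5%, 35.9% and 50.2% in Ikaros, with overlap, and was higher in Ikaros (adjusted p = 7.89e-06 in limma). Of 27 clusters of DNA methylation writers, erasers and readers the members were Dnmt3a, a sharp step at 19.6% in Control and 19.3% in Ikaros, and Tet2. Tet2, which oxidises methylated cytosine, was evenly intermediate and ranged from 33.3% to 56.5% in Control and from 14.6% to 86.8% in Ikaros without passing (adjusted p = 0.800 in limma).

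Of 42 clusters of genes of other blood lineages 5 were members (11.9%, against 6.77% of all), and 3 of the 5 passed (22.5% of all members did). Tcf7, a T-cell transcription factor and a sharp step, had 40.2%, 44.1% and 45.8% in Control and 45.6%, 48.9% and 64.5% in Ikaros (adjusted p = 1.87e-05 in limma). Csf2ra, a growth factor receptor of myeloid cells, had 57.7%, 65.8% and 72.1% in Control and 66.4%, 72.2% and 77.4% in Ikaros (adjusted p = 7.23e-07 in limma). Both were higher in Ikaros with overlap, and the third was the cluster near Prtn3. Gata3 had 1 evenly intermediate cluster, from 15.8% to 54.4% in Control and from 9.10% to 75.7% in Ikaros (adjusted p = 0.767 in limma).

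Developmental transcription factors of other lineages were methylated at 241 of 260 clusters, with 13 members (5%, against 6.77% of all). Of the 13, 6 passed, all higher in Ikaros, where 22.5% of all members passed and 175 of those 196 were higher. Dlx2 had 18.7% in Control and 21.5% in Ikaros, and Foxf1 77.7% and 83.6% (adjusted p = 0.0104 and 0.00198 in limma). Foxd2 (46.6% and 47.1%) and the larger of the Lhx2 clusters (14.3% and 16.1%) did not pass, while the other Lhx2 cluster, not among the genes named by rule, did (71.1% and 77.0%). Of 54 Hox clusters the members were Hoxb8 and Hoxa3, of 13 clustered protocadherin clusters Pcdhgc3 and Pcdha8, and none passed. Of 10 clusters of secreted Wnt antagonists Wif1 was the member, with 9.89%, 23.3% and 33.5% in Control and 19.2%, 33.5% and 53.0% in Ikaros (adjusted p = 0.00735 in limma).

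Of 39 clusters of cell-cycle inhibitors, D cyclins and Myc genes 4 were members. Cdkn2a, the locus of the Ink4a and Arf tumour suppressors, had a pair of them. The one over a coding exon, chr4:89294195-89295118, had 66.7%, 72.6% and 78.7% in Control and 70.4%, 76.9% and 83.5% in Ikaros (adjusted p = 0.000682 in limma). The one beside it, chr4:89295222-89295625, was evenly intermediate with 24.6%, 44.1% and 58.7% in Control and 26.7%, 46.3% and 60.4% in Ikaros (adjusted p = 0.900 in limma). Mycl (55.3% and 56.8% in Control and Ikaros) and Ccnd1, the gene of cyclin D1 (46.7% and 47.8%), were evenly intermediate and did not pass. The lists of zinc finger (Zfp) and solute carrier (Slc) genes had 20 members of 244 clusters (8.20%) and 18 of 249 (7.23%), near the 6.77% of all, and 2 of the 20 and 4 of the 18 passed (22.5% of all members). The list of germline and pluripotency genes, which leaves out Klf4, had 0 members of 25 clusters, all methylated. Olfactory receptor genes had 0 of 1.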

How the data were processed

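RRBS libraries of 36 samples were analysed from tables that the authors deposited. Trimming, mapping to GRCm38 and methylation calls were done by the authors (Bismark 0.10.1, with CASAVA, FastQC, HTSeq and methylKit also named in the submitters' processing notes, build mm10). CpG clusters were then defined and levels smoothed over neighbouring positions by the authors with BiSeq. The deposited level of a position is a fraction from 0 to 1, given here in percent. The deposited M-values are on a log2 scale, from levels limited to 0.01 to 0.99. Smoothed neighbours are not independent, and no coverage is given.

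Cluster values were means over the positions with a value in all 36 samples (895908 of 1116417). Starts, exons and genes came from GENCODE M21, sequence from GRCm38. limma 3.58.1 in R 4.3.3 (lmFit, eBayes) was fitted to the M-values of all 16734 clusters, with Benjamini-Hochberg adjustment over all of them at 0.05. The series were compared with time as a factor, and at 0 h and 24 h within a fit of 12 group means. Time was tested within a series by a moderated F test, and the course by the interaction terms. The fits were tested on simulated clusters. Levels and sequence were handled with pysam 0.24.0, pandas 2.3.3 and numpy 2.4.6 in Python 3.11.15.

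Conditions, replicates and batches came from the labels. Replicate numbers 1 and 3 each mark 1 batch, and number 2 marks 1 batch at 0 h and another later. The deviations of same-numbered samples from their condition means had a mean correlation of -0.000326 over 198 pairs. The time course was repeated in batches, with 0 h cells obtained separately. Batch was not a term of the main fits, so their p-values measure the spread between libraries of 1 cell line. Libraries of the same batch at different times counted as separate samples. With batch as a block 197 members passed between the series.

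Members and gene lists were chosen with earlier results of these data known. Named are the 12 members past the threshold of the series comparison with the smallest p, the 3 with the smallest p in each other test, up to 4 per gene list and 4 per shape with the most positions, and the 2 clusters on each side of each bound. Exceptions are marked where they are named. Alternatives were levels in place of M-values, all listed positions, replicate number or batch as a block, samples or replicates left out, quality covariates, trend and robust moderation, and other member rules.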

Additional observations from a re-analysis of the deposited data

How the results depend on the processing

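The number of partly methylated promoters was 872, and 740 with a Control mean from 20% to 80%, 823 within 500 bp of a start, 851 by the Ikaros samples, 895 with all listed positions and 866 to 880 with a replicate left out. Of the members past the threshold between the series, 196, all kept their direction in every refit, and 104 of them passed with the quality covariates, where 106 passed in all. Leaving out samples gave 116 to 197 for the series, 0 to 21 at 0 h, 7 to 32 at 24 h and 0 for each test over time. At 0 h the count of 19 became 1 with the quality covariates and 12 with trend and robust moderation. At 24 h the count of 18 became 3 with the quality covariates and 11 with all listed positions. For change over time in Control, 0 became 1 with batch as a block. The cause of these shifts was not tested. Leaving out a replicate number leaves 2 samples a condition. With the replicate number as a block (replicate block) 195 members passed between the series, 20 at 0 h and 23 at 24 h, and 0 in each test over time, which moved no count by more than 1.5 times.

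Over 71 values of named members, each in the comparison it was named for, no value past the threshold reversed. Of their values in the alternatives, 17 no longer passed in other fits or rules and 20 when samples were left out, while 3 and 1 newly passed and the other 406 and 260 stayed on their side. With depth unknown, a spread from few reads and a spread between cultures cannot be told apart, and a level near the middle in the smoothed tables does not show whether single molecules were methylated in part.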
